A study of Mus musculus with 2 samples.

Results

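Cst13-rich spermatids are testicular germ cells picked from 2 single-cell RNA sequencing libraries by 7 genes: Cst13, Adig, Tuba8, Prss37, Atp6v1fnb, Trp53tg5 and Pex5l. In each library, among cell barcodes with at least 5000 unique molecular identifiers (UMIs, the counted molecules), the 500 barcodes with the highest summed share of UMIs from these genes were taken. This gave 1000 of 17311 barcodes of that depth (5.78%), out of 26466 barcodes in all. The members were therefore chosen on measured values, and their levels of the 7 genes are a description. The working name for these cells was late round spermatids. Of them 399 of 500 and 380 of 500 also belonged to the 500 barcodes of their library that were richest in protamine and transition protein transcripts, which are made before the proteins are, so the stage in the working name was not settled by these markers. The cells are called Cst13-rich spermatids here, after the first of the 7 genes listed.

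The testes came from a diet study of C57 BL/6 male mice that were 5 weeks old at the start and were given 1 week to adapt. It had 20 mice, 10 on each diet, either normal feed or high-fat feed (fat giving 60% of the energy), and the feeding lasted 12 weeks. One library is labelled as high-fat, and the label of the other gives the tissue and no diet (the diet-unnamed library). The labels call the cells germ cells and do not say whether a library held 1 animal or several, and both libraries share strain, sex, starting age and tissue digestion. With 1 library per group no test between groups was possible, and each difference given is one between 2 libraries and cannot be read as an effect of diet. Of each pair of values the first is from the diet-unnamed library and the other from the high-fat library. The libraries held 13805 and 12661 barcodes with medians of 13024 and 9772 UMIs, and 1507 barcode names occurred in both, 2 of them among members of both.

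Spermiogenesis turns a haploid round spermatid into a sperm. Nuclear histones give way to transition proteins and then to protamines, the chromatin condenses, and the flagellum, its sheaths and the acrosome are completed. Transcription stops during this change, so many messages for late proteins are made in round spermatids and stored before they are translated.

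The sequences just before the start sites are shown for the 3 selection genes in which TATAAA or ACAATGG was found there, and for Prm2. They are the 250 bases upstream of the annotated start, 5′ to 3′ on the strand of the gene, from RefSeq (GRCm38.p6). They lie at chr2:148819849-148820098 (Cst13, plus strand), chr6:121210484-121210733 (Tuba8, plus strand), chr2:164473725-164473974 (Trp53tg5, minus strand) and chr16:10792106-10792355 (Prm2, minus strand). Capitals mark a match to TATAAA, the TATA box, in Cst13, Trp53tg5 and Prm2 (printed as TTTATA where it lies on the opposite strand), and a match to ACAATGG, a SOX site, in Tuba8 (printed as CCATTGT).
Cst13: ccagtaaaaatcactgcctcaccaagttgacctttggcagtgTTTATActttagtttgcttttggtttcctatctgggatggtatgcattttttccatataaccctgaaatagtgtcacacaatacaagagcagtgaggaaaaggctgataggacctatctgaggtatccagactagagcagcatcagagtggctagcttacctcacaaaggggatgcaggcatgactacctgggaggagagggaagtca
Tuba8: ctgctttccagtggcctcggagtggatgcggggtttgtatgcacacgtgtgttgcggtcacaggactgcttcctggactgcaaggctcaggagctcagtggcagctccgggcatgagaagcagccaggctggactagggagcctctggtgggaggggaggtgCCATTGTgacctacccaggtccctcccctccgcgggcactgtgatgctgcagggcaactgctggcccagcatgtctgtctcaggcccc
Trp53tg5: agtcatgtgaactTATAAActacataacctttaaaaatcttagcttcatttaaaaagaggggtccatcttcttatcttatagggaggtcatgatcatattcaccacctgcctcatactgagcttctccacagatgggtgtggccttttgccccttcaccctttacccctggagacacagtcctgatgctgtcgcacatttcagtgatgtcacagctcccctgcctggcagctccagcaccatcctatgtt
Prm2: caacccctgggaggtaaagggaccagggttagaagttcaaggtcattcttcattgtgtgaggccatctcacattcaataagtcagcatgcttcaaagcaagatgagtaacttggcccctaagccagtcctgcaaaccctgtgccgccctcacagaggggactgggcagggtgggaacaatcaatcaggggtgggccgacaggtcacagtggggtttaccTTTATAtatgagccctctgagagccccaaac
Counted from the start site, the match began at -208 in Cst13, at -237 in Trp53tg5, at -31 in Prm2 and at -88 in Tuba8.

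The search covered 300 bases around each start, on both strands, and 6 of the 7 selection genes had a sequence there. TATAAA was found in 2 of these 6 and in 13.6% of all 32851 RefSeq promoters, and ACAATGG in 1 of 6 and in 3.66% of all. The cAMP response element TGACGTCA, the motif bound by CREM, was found in 0 of the 6 and in 1.79% of all promoters. Its shorter form TGACG, which lies inside the full element, was in 0 of the 6 and in 20.8% of all. Of the 20 genes with the highest ratios to other barcodes, described further on, 15 had a sequence: 4 held TGACG (Iqcf6, Tuba4a, Tssk6 and 1700027A15Rik), and 0 held the full element.

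The last barcode taken had 0.236% of its UMIs from the 7 genes in the diet-unnamed library and 0.211% in the high-fat library. The members from rank 491 to rank 500 lay between 0.240% and 0.236%, and between 0.213% and 0.211%. The barcodes from rank 501 to rank 510, just left out, ran from 0.235% to 0.233% and from 0.210% to 0.208%, so the share has no gap at the threshold. The median member had 0.340% and 0.311%, and the highest 0.637% and 0.602%. The median of all other barcodes of at least 5000 UMIs was 0.00341% and 0.00693%, and 44.8% and 24.0% of them had no UMI of any of the 7 genes. Members had a median of 17161 UMIs (5039 to 198379) and 21962 UMIs (5011 to 159038).

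Tuba8, an alpha-tubulin isotype, gave the most UMIs of the 7 genes in the members. Its level was 1116 CPM (UMIs of the gene scaled to the total, 95% Poisson interval 1096 to 1136) in the diet-unnamed library and 1053 CPM (1035 to 1071) in the high-fat library. These are levels of counts summed over the 500 barcodes, and all such intervals cover counting error only. Single members had a median of 1051 CPM of Tuba8 (130 to 2803) and 984 CPM (0 to 2550). Cst13, of the cystatin family of cysteine protease inhibitors, stood at 621 CPM (606 to 636) and 582 CPM (569 to 596), with medians per member of 567 CPM (0 to 1475) and 543 CPM (0 to 1972). All other barcodes held 20.1 and 26.4 CPM of Cst13 and 37.4 and 51.2 CPM of Tuba8.

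Adig encodes adipogenin, a small membrane protein known from fat cells, and was at 432 CPM (420 to 445) and 343 CPM (333 to 353). Prss37, a serine protease-like protein needed for the sperm surface protein Adam3 to mature, was at 293 CPM (283 to 303) and 331 CPM (321 to 341). Pex5l, a relative of the peroxisomal import receptor that binds HCN channels, was at 464 CPM (451 to 477) and 530 CPM (517 to 542). Trp53tg5 was at 441 CPM (428 to 454) and 354 CPM (344 to 365), and Atp6v1fnb at 230 CPM (221 to 239) and 166 CPM (159 to 173). These 5 genes were between 9.46 and 48.2 CPM in the other barcodes, so each of the 7 was far higher in the members, as the choice makes it. The exons of Tuba8, Atp6v1fnb, Trp53tg5 and Pex5l overlap a gene on the other strand, and whether counting used strand is not given in the sources used here.

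Most members held transcripts of all 7 genes: 436 of 500 (87.2%) and 406 of 500 (81.2%) had at least 1 UMI of each. After every member was thinned to 5000 UMIs, 146 and 107 did. As a background for free RNA, the 200 barcodes per library with the highest share of Sertoli cell marker UMIs, with medians of 1477 and 2245 UMIs, were thinned to 1000 UMIs. Tuba8 was then seen in 4.5% and 11% of them, and no other selection gene was seen in more than 3.5%. Members thinned to the same 1000 UMIs showed Tuba8 in 63.6% and 63.8%, Cst13 in 43.0% and 42.0% and Atp6v1fnb in 20.4% and 14.2%.

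Each gene was also measured in barcodes picked by the other 6, a pick that left out its own counts. Of the 500 barcodes chosen this way, 464 to 489 were members, and the left-out gene was 10.6 to 34.2 times as high in them as in all other barcodes. The members were chosen with earlier results of these data known, and most of these barcodes are members. The ratios are therefore a description and no independent test of the choice. Trp53tg5 had the highest ratios, 34.2 and 28.5, from 433 CPM (420 to 445) against 12.7 CPM and from 347 CPM (337 to 358) against 12.2 CPM. Pex5l had the lowest, 14.9 and 10.6, with 452 CPM against 30.2 CPM and 518 CPM against 48.8 CPM. Cst13 was 29.2 and 21.1 times as high in barcodes chosen without it.

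**Figure D1:**
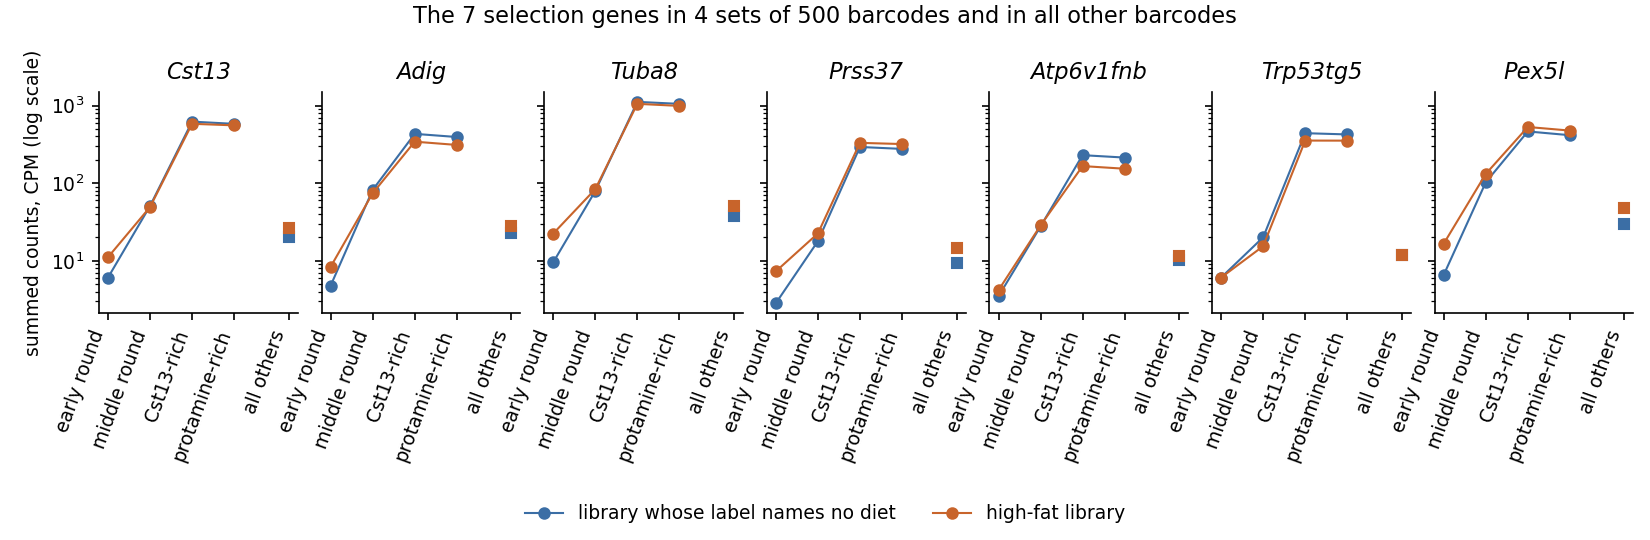
Summed level (CPM, log axis) of each of the 7 selection genes in 4 sets of 500 barcodes per library and in all other barcodes of at least 5000 UMIs. Cst13-rich and protamine-rich barcodes, which share 399 and 380 of 500, have close levels, and the middle round set lies between them and the early round set for each gene (Cst13 at 51.0 and 49.4 CPM against 6.10 and 11.2 CPM).

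To place the cells in the course of spermiogenesis, 3 further sets of 500 barcodes per library were taken by the share of UMIs from Ssxb genes, read early in round spermatids (early round set), from Lyzl genes, which encode lysozyme-like proteins of the acrosome (middle round set), and from the protamine genes Prm1 and Prm2 with the transition protein genes Tnp1 and Tnp2 (protamine-rich set). The Cst13-rich spermatids shared 0 and 2 barcodes with the early round set, 11 and 10 with the middle round set, and 399 (79.8%) and 380 (76.0%) with the protamine-rich set. That share depends on how many barcodes are taken: it was 66.0% and 57.6% with 250 per set and 89.1% and 84.3% with 1000. Prm1, Prm2, Tnp1 and Tnp2 made up 3.15% and 3.87% of the UMIs of the Cst13-rich spermatids, against 0.234% and 0.265% in the middle round set, 0.140% and 0.270% in all other barcodes and 4.13% and 6.11% in the protamine-rich set. Single members ranged from 0.354% to 22.0% and from 0.359% to 19.9%. Lyzl genes made up 0.113% and 0.139% of UMIs, which lies between other barcodes (0.0607% and 0.0840%) and the middle round set (0.212% and 0.264%).

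Marker genes outside the selection were compared with all other barcodes. Of 14 markers of elongating spermatids, which include the protamine genes, 14 were at least 2-fold above the other barcodes in both libraries. Among all genes with at least 20 CPM in either set, 28.3% and 26.8% were that much higher and 32.4% and 32.2% that much lower, and the median log2 ratio was -0.53 and -0.52. Of 10 middle round markers 7 and 5 were 2-fold higher. Of 12 late spermatocyte markers 9 and 8 were 2-fold lower, such as Aurka, a kinase of the meiotic spindle, at 49.0 and 41.5 CPM against 340 and 329 CPM.

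Markers of somatic cells were low in sum, apart from single genes, but single members held more. The highest member had 2685 and 3799 CPM of Sertoli cell markers and 1194 and 5271 CPM of interstitial stroma markers. The median member had 0 CPM of either list in both libraries. The 12 Sertoli cell markers summed to 41.5 and 48.0 CPM in the members, against 39.7 and 95.5 CPM in the other barcodes, with Wt1 at 0 and 0.472 CPM. Leydig cell markers summed to 1.76 and 1.57 CPM, with Star and Hsd3b1 at 0 in the diet-unnamed library and Hsd17b3 at 0 in the high-fat library. Those of the interstitial stroma summed to 19.0 and 17.7 CPM, and those of the endothelium to 15.7 and 11.7 CPM. The 8 peritubular myoid markers summed to 533 and 446 CPM, but Actg2, a smooth muscle actin, gave 503 and 430 CPM of that (81.5 and 109 CPM in the other barcodes), and Acta2 was at 4.64 and 2.28 CPM. Of macrophage markers C1qb gave 22.9 of 24.9 CPM and 9.91 of 11.9 CPM, with C1qa at 0 and 0.236 CPM. Of lymphoid markers Cd3d gave 44.2 of 57.9 CPM and 21.5 of 30.7 CPM, with Cd79a at 0 in both.

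**Figure D2:**
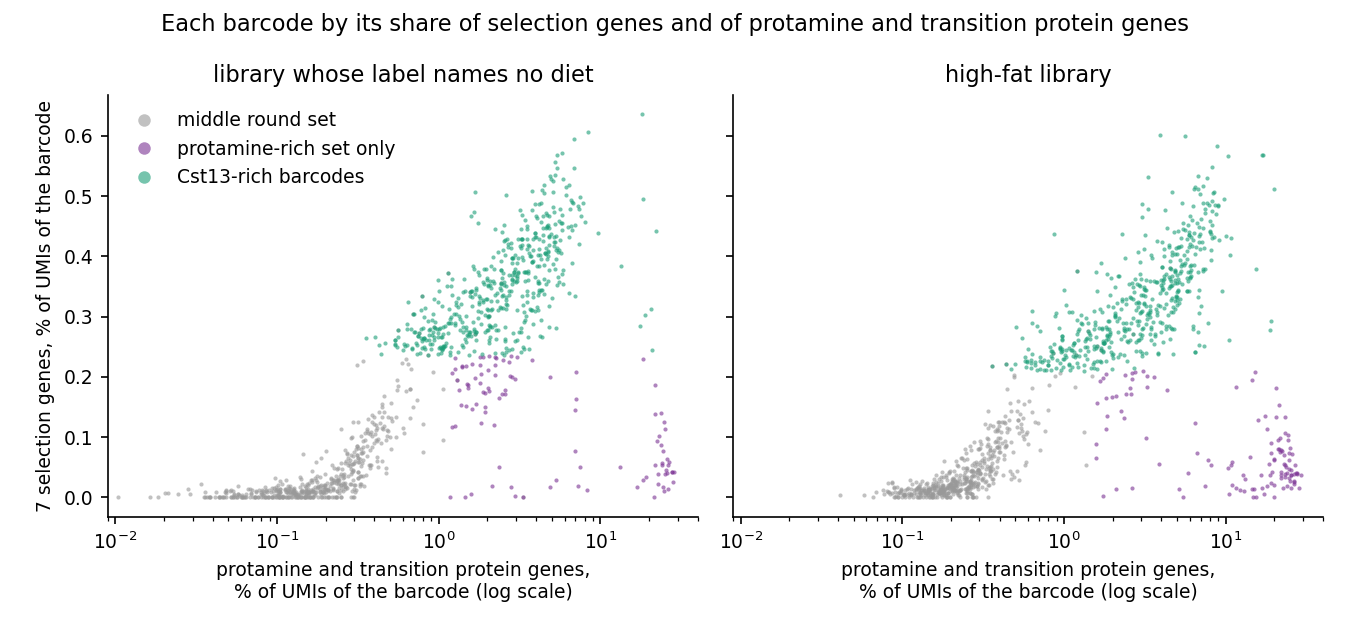
Each point is a barcode, with its share of UMIs from protamine and transition protein genes (%, log axis) against its share from the 7 selection genes (%), for the Cst13-rich barcodes, the middle round set and the protamine-rich barcodes that are not Cst13-rich; 2 middle round barcodes with no such UMI are not drawn. Members begin at 0.236% and 0.211% of selection UMIs and reach across protamine shares from 0.354% to 22.0%.

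Across the 500 members of a library the 7 genes differed in how much they changed with the protamine share. Members were ranked by their share of protamine and transition protein UMIs and cut into 5 bins of 100, the first with at most 1.15% and 1.36%, the last with at least 4.53% and 5.78%. From the first to the last bin, the selection share went from 0.271% to 0.443% and from 0.246% to 0.432%. Trp53tg5 went from 265 to 634 CPM and from 186 to 536 CPM, and was higher in each bin than in the one before in both libraries. Adig went only from 386 to 469 CPM and from 304 to 387 CPM, and Pex5l from 443 to 477 CPM and from 453 to 598 CPM. Cst13 went from 455 to 792 CPM and from 382 to 809 CPM, and Tuba8, Prss37 and Atp6v1fnb were also higher in the last bin than in the first in both libraries. As both shares are parts of the same totals in the same barcodes, these courses are a description.

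Other genes followed different courses over the bins. Tssk6, a testis-specific kinase, went from 241 to 417 CPM and from 268 to 604 CPM. Smcp, the cysteine-rich protein of the mitochondrial capsule, stayed between 4198 and 4740 CPM and between 4074 and 4590 CPM. Crem, the transcription factor that drives many postmeiotic genes, went down from 659 to 453 CPM and from 648 to 363 CPM, and the Lyzl genes together from 1366 to 939 CPM and from 1705 to 1124 CPM. Genes detected per member, thinned to 5000 UMIs, went from a median of 2349 to 2254.5 and from 2386 to 2209. In the high-fat library the median UMI count also went from 18065.5 in the first bin to 27072 in the last, and in the other library it was 16846 and 17106. The part of depth in these courses was not tested.

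**Figure D3:**
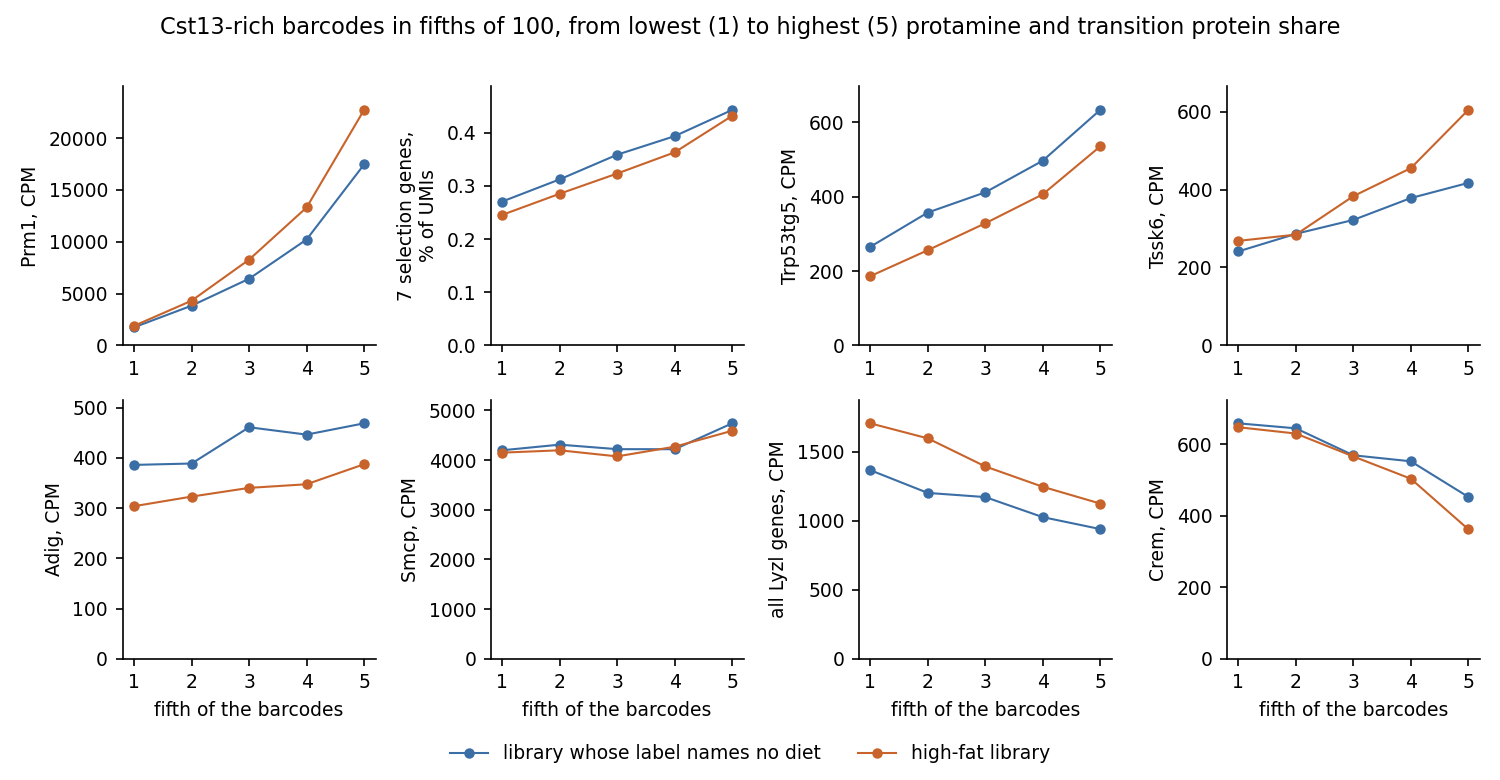
Levels (CPM, or % of UMIs for the selection genes) in the Cst13-rich barcodes cut into 5 bins of 100, from the lowest (1) to the highest (5) share of protamine and transition protein UMIs, 1 line per library. Prm1, which helped to order the barcodes, goes from 1753 to 17450 and from 1895 to 22710 CPM, Smcp is nearly flat, and the Lyzl genes and Crem go down.

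Against all other barcodes of at least 5000 UMIs, 1057 of the 3919 genes compared were at least 2-fold higher in the Cst13-rich spermatids of both libraries (27.0%) and 1006 at least 2-fold lower (25.7%). The genes compared had at least 50 CPM in either set, and their median log2 ratio was -0.46. Past 2-fold in opposite directions in the libraries was 1 gene (0.0255%). Among genes with at least 200 CPM in the members of both libraries and apart from the selection genes, the highest ratios belonged to Prss52, a serine protease of the Prss family, with 256 CPM against 6.90 CPM and 203 CPM against 6.95 CPM (37.1-fold and 29.2-fold). Next came Fam71b (33.1-fold and 22.9-fold), Hemgn, a nuclear protein known from blood progenitors (310 and 315 CPM, 28.7-fold and 20.4-fold), and Paqr5, a membrane progestin receptor (29.5-fold and 16.4-fold). Tex37 was 31.3-fold and 15.8-fold higher. Over the barcodes not shared with the protamine-rich set, Paqr5 was lower in the members, at 90.8 and 121 CPM against 285 and 587 CPM. Tex37 was also lower there (log2 ratio -0.97 and -1.67). Fam71b (0.51 and 1.12) and Hemgn (0.51 and 1.43) were higher in the members, and Prss52 had -0.01 and 0.45.

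Prm2, Tnp2 and Prm1 stood among the first 20 genes by ratio to the other barcodes, chosen in the same way. Prm2 was at 6973 and 8148 CPM, against 256 and 509 CPM in the other barcodes. Tnp2 was at 8421 and 10910 CPM, and Prm1 at 8267 and 10827 CPM. Of these 20 genes 16 were protein-coding, among them Tuba4a, another alpha-tubulin (210 and 202 CPM), Cd59a, an inhibitor of the complement attack complex (351 and 309 CPM), and Tssk6 (333 and 411 CPM). The other 4 were noncoding: Gm44006, 4930405D11Rik, 1700027F06Rik, and 1700027A15Rik, whose exons overlap Tnp1 on the other strand. Exons of 5 of the 20, Tuba4a and Tssk6 included, overlap another gene.

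The genes lowest against the other barcodes were led by 1700029P11Rik, at 32.2 and 38.5 CPM against 287 and 336 CPM, and Pxt1, a testis protein, at 33.7 and 34.4 CPM against 290 and 342 CPM. Diablo, the mitochondrial protein that relieves caspase inhibition, was at 94.2 and 77.2 CPM against 741 and 613 CPM. Hspa5, the main chaperone of the endoplasmic reticulum, was at 45.2 and 35.6 CPM against 316 and 251 CPM. Calm2, a calmodulin gene, was at 70.4 and 92.9 CPM against 492 and 660 CPM. Rps27a, Atxn7l3b, Pde6d, Cabcoco1 and Ptges3, the others of these 10, had log2 ratios between -3.07 and -2.83. In the middle round set Diablo (115 and 83.7 CPM), Hspa5 (55.4 and 35.5 CPM) and Calm2 (80.3 and 101 CPM) were nearly as low as in the members. Pde6d (log2 ratio of members over that set -1.84 and -1.65), Ptges3 (-1.78 and -1.55) and Cabcoco1 (-1.27 and -1.26) differed more.

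Lists of genes by function describe the members against all other barcodes, which hold most of the early and middle round sets. In each list, genes with at least 20 CPM in the members or in the other barcodes of a library were compared. The share of 2-fold higher genes is to be read against the 28.3% and 26.8% of all genes, and that of 2-fold lower genes against 32.4% and 32.2%. Histone-to-protamine genes had 12 of 21 and 13 of 22 at least 2-fold higher and 5 and 4 at least 2-fold lower, with a median log2 ratio of 1.92 and 1.77. The higher ones included H1fnt, the linker histone of the spermatid nucleus (1320 and 1278 CPM, log2 ratio 3.33 and 2.64), the histone variant gene H2al2a (633 and 545 CPM, 4.21 and 3.51) and Hmgb4, a chromatin protein (1531 and 1952 CPM, 2.97 and 2.37). The lower ones included Hist1h1t, the linker histone of spermatocytes (5.94 and 6.61 CPM, -2.93 and -2.93), and the acetyltransferase gene Kat5 (13.2 and 13.6 CPM, -2.72 and -2.53).

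Genes of the actin-like proteins and the perinuclear theca, the shell between acrosome and nucleus, had 16 and 15 of 22 at least 2-fold higher and 1 lower (Pfn1, the general profilin), with a median of 1.90 and 1.60. Actrt3, an actin-related protein, had 188 and 229 CPM (5.29 and 4.83), and Wbp2nl, the theca protein PAWP, 128 and 163 CPM (5.13 and 4.68). Ccin, or calicin, had 353 and 416 CPM (3.65 and 3.02) and Actrt2 1082 and 1060 CPM (2.96 and 2.57). Sperm-egg fusion genes had 10 and 9 of 12 at least 2-fold higher. Among them were Izumo1, the sperm ligand of the egg receptor Juno (174 and 205 CPM, 1.89 and 1.76), and Spaca6 (69.5 and 86.5 CPM, 2.34 and 2.02), while Izumo4 was lower (165 and 193 CPM, -1.31 and -1.33).

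Flagellum genes differed by structure. Of 24 genes of the outer dense fibres, fibrous sheath and midpiece, 14 in each library were at least 2-fold higher and 1 lower (Rhoa, a general small GTPase), with a median of 1.66 and 1.49. Akap4, the main scaffold of the fibrous sheath, was at 299 and 376 CPM (2.14 and 1.92), Spata18 at 244 and 269 CPM (2.87 and 2.30), and Gapdhs, the sperm glyceraldehyde phosphate dehydrogenase bound to the sheath, at 1024 and 1213 CPM (2.33 and 2.00). Of 32 genes of the axoneme and its assembly 1 was 2-fold higher, Tekt5, a tektin of the tail (313 and 291 CPM, 2.50 and 2.34), and 11 in each library were 2-fold lower, a share near that of all genes, with a median of -0.72 and -0.74. Rsph1, a radial spoke head protein, was at 1550 and 569 CPM against 8066 and 2860 CPM.

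Genes for oxidative phosphorylation and ribosomes were seldom higher. Of 31 and 32 nuclear genes of oxidative phosphorylation 0 were 2-fold higher and 13 in each library were 2-fold lower, such as Cox8c, a testis subunit of cytochrome c oxidase (978 and 1066 CPM against 3422 and 3634 CPM), and the median was -0.83 and -0.85. Ribosomal protein genes had 0 higher and 6 of 34 and 7 of 35 lower, with a median of -0.67 and -0.75, where the median of all genes was -0.53 and -0.52. Glycolysis genes were mixed, with 6 of 21 and 5 of 22 higher and 4 and 5 lower. Gpi1 (178 and 181 CPM, 2.64 and 2.87) and Pkm, pyruvate kinase (94.4 and 109 CPM, 2.75 and 2.37), were higher, and Slc2a3, a glucose transporter (117 and 117 CPM, -1.86 and -2.0), and Pfkm (19.3 and 20.8 CPM, -1.97 and -1.96) lower.

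The families of the selection genes held genes that were higher and genes that were lower. Selection genes such as Tuba8 and Prss37 are counted in these lists, and they were higher as the choice makes them. Of 10 tubulin genes measured, 5 were at least 2-fold higher, Tuba8, Tuba4a, Tuba1c, Tubb6 and Tubg1, and 4 lower, Tuba3a, Tuba3b, Tuba1b and Tubd1. Tuba3a and Tuba3b, close copies among which reads may be split, were at 894 and 760 CPM and at 615 and 607 CPM, against 2420 and 2338 CPM and 2036 and 2141 CPM. Of the cystatins, Cst8 was at 699 and 925 CPM (3.80 and 2.75) and Cstl1 at 202 and 180 CPM (5.07 and 4.18), both higher as Cst13 was. Of 16 Prss genes 5 were higher, Prss52, Prss37, Prss51, Prss58 and Prss55, and 7 lower, among them Prss46 (57.3 and 38.4 CPM against 218 and 195 CPM).

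Genes needed for Adam3 and the passage of sperm into the oviduct, as Prss37 is, had 10 and 9 of 19 higher and 5 and 3 lower. Calr3, a testis calreticulin, was at 310 and 337 CPM (3.86 and 3.5), Prss55 at 594 and 495 CPM (3.76 and 3.26) and Pmis2 at 571 and 539 CPM (2.30 and 1.97), whereas Adam3 itself was at 654 and 487 CPM against 880 and 656 CPM (-0.43 and -0.43). Among lipid genes, 7 of 20 and 9 of 21 were higher and 4 and 5 lower. The higher ones include the selection gene Adig, as the choice makes it. Agpat2, which makes phosphatidic acid (78.1 and 80.8 CPM, 5.05 and 4.43), Plin3, a lipid droplet coat protein (25.7 and 38.8 CPM, 3.76 and 3.84), and Lipe, hormone-sensitive lipase (42.2 and 71.8 CPM, 2.78 and 2.39), were higher, and Hilpda (8.64 and 7.32 CPM, -3.07 and -3.19) lower. The testis ketone body enzymes Oxct2a (140 and 164 CPM, 5.0 and 4.38) and Oxct2b (145 and 153 CPM, 5.03 and 4.56), close copies, were also higher.

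Ubiquitin and proteasome genes of spermatids had 16 of 29 and 14 of 30 higher and 3 lower in each library. They were led by Spata3 (1073 and 982 CPM, 3.40 and 2.83), Asb17 (476 and 517 CPM, 3.21 and 2.67) and the ligase gene Rnf133 (262 and 303 CPM, 3.14 and 2.62). For RNA storage and translation, 4 of 29 and 4 of 30 were higher and 11 and 12 lower. Eif4g1, the scaffold of the cap-binding complex (108 and 122 CPM, 2.73 and 2.34), and Paip2b (81.1 and 86.0 CPM, 2.62 and 2.49) were higher, and Piwil1, a piRNA-binding protein of earlier germ cells (14.3 and 15.8 CPM, -2.71 and -2.69), lower. Of the genes named from the lists, the exons of Kat5, Izumo1, Spaca6, Rhoa, Gapdhs, Gpi1, Pkm, Pfkm, Tuba1b, Tuba3a, Tuba4a, Adam3, Agpat2, Lipe, Oxct2b, Asb17, Crem and Eif4g1 overlap another gene, and their levels are uncertain to that extent.

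**Figure D4:**
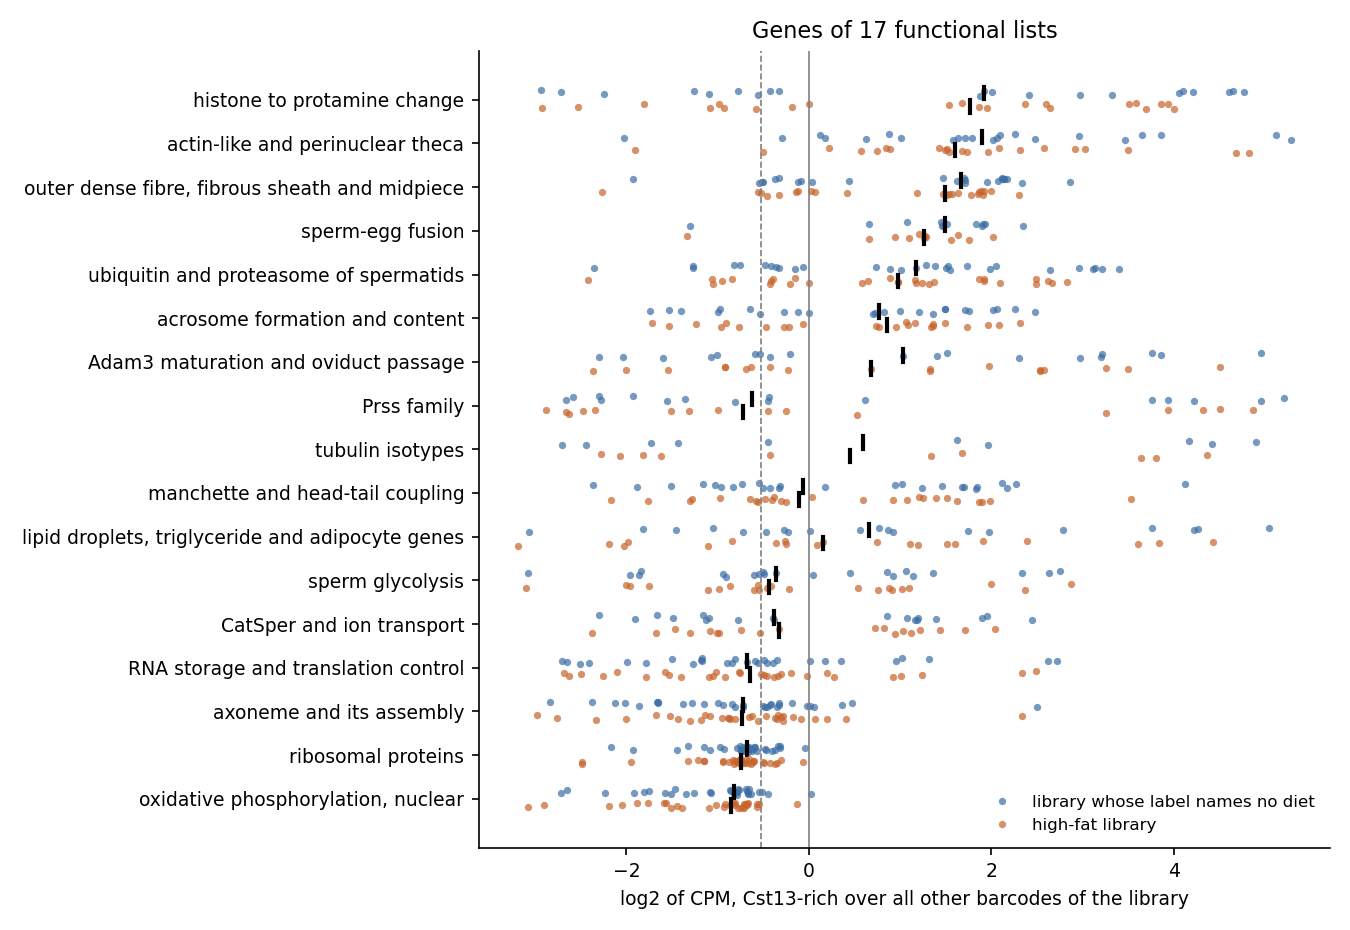
Log2 ratio of CPM in Cst13-rich over all other barcodes for each gene of 17 functional lists with at least 20 CPM in either set, with black bars for the median of a list in a library and the dashed line for the median of all genes (-0.53). The medians of the theca list (1.90 and 1.60) and the outer dense fibre list (1.66 and 1.49) lie to the right of 1, and those of oxidative phosphorylation (-0.83 and -0.85) to the left of the dashed line.

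A nearer comparison is that with the middle round set, with shared barcodes left out of both. Here 403 of 3396 genes were at least 2-fold higher in the Cst13-rich spermatids of both libraries (11.9%) and 143 at least 2-fold lower (4.21%). These counts depend on how the sets are drawn: the lower count was 250 with 250 barcodes per set, 81 with 1000, and 61 without members that also belong to a stage set, which took the higher count to 247. Prm2 had 7028 CPM against 167 CPM and 8229 CPM against 250 CPM (log2 ratio 5.39 and 5.04), and Prm1 differed by 5.06 and 5.0. Paqr5 (4.95 and 4.58), Fam71b (4.60 and 4.35) and Prss52 (4.27 and 4.64) differed nearly as much, and were between 7.06 and 13.3 CPM in the middle round set.

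Genes lower than in the middle round set included Smco4, a small membrane protein, at 19.2 and 18.1 CPM against 230 and 219 CPM (-3.59 and -3.60). Il31, a cytokine gene whose exons overlap Lrrc43 on the other strand, was at 56.1 and 48.1 CPM against 312 and 345 CPM (-2.48 and -2.84), and Prss46 at 57.2 and 38.6 CPM against 250 and 218 CPM (-2.13 and -2.50). Bri3 (-1.84 and -2.20), Sem1, a small proteasome subunit (-1.66 and -2.06), and Art3, of the ADP-ribosyltransferase family (-1.81 and -1.72), followed. The actin-like and theca list had 7 of 22 genes 2-fold higher than in the middle round set in each library, where 14.5% and 14.1% of all genes were (7.17% and 7.74% were 2-fold lower), and the histone-to-protamine list 8 of 19. Acrosome genes had 1 of 23, sperm-egg fusion genes 0 of 13 and outer dense fibre and sheath genes 1 of 23.

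The protamine-rich set could be compared only over the barcodes not shared, 101 of each set in the diet-unnamed library and 120 of each in the high-fat library. There 323 of 3327 genes were at least 2-fold higher in the Cst13-rich spermatids of both libraries (9.71%) and 169 at least 2-fold lower (5.08%). These counts rest on few cells and on the set size. They were 140 and 84 with 250 barcodes per set, 34 and 55 with 1000, 167 and 108 without doublet calls, and 8 and 44 when members of any stage set were left out. The protamine-rich barcodes compared had medians of 12111 and 10801 UMIs, against 16927 and 18460.5 UMIs for the members, and 11 of the 12 Sertoli cell markers summed to 299 and 927 CPM in them, against 25.4 and 38.3 CPM in the members compared. The part of depth and of these markers in the counts was not tested.

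Higher on the Cst13-rich side were 1700067P10Rik (873 and 697 CPM against 289 and 145 CPM), Fam24b (591 and 552 CPM against 205 and 133 CPM), Sun5, which couples the sperm head to the tail (282 and 200 CPM against 106 and 58.7 CPM), and Hmgn1, a nucleosome-binding protein (282 and 244 CPM against 106 and 80.4 CPM). Each of these genes was lower in the members than in the middle round set. There 1700067P10Rik had 532 and 407 CPM against 1092 and 1007 CPM, and Fam24b 407 and 326 CPM against 534 and 608 CPM. Sun5 had 229 and 170 CPM against 252 and 226 CPM, and Hmgn1 175 and 142 CPM against 291 and 285 CPM. Exons of 1700067P10Rik overlap A730006G06Rik on the other strand. In the comparison with the protamine-rich set, Prm1 was at 1774 and 2128 CPM against 20347 and 46187 CPM, as the choice of that set makes it. Klk1b8, a kallikrein gene (49.3 and 42.2 CPM against 297 and 556 CPM), Defb33, a beta-defensin gene (47.4 and 31.7 CPM against 205 and 387 CPM), and Calm2 (64.9 and 89.3 CPM against 278 and 348 CPM) were also lower. Klk1b8 and Defb33 were therefore higher in the protamine-rich barcodes, while Calm2 and Diablo, lowest against all other barcodes, were lower still in the members than in that set.

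Between the libraries, the Cst13-rich spermatids had most genes within 2-fold. Of 3510 genes with at least 50 CPM in the members of either library, 141 were at least 2-fold higher in the high-fat library (4.02%) and 134 at least 2-fold lower (3.82%). The selection genes chose the members in each library, so the choice bears on their levels and their ratios are a description. The 500 members were 5.13% and 6.61% of the barcodes of at least 5000 UMIs. The log2 ratios of the selection genes, high-fat over the other library, were -0.09 for Cst13, -0.33 for Adig, -0.08 for Tuba8, 0.18 for Prss37, -0.47 for Atp6v1fnb, -0.32 for Trp53tg5 and 0.19 for Pex5l. In the other barcodes the same ratios were 0.39, 0.31, 0.45, 0.62, 0.18, -0.01 and 0.70. The other barcodes of the 2 libraries also differed in protamine and transition protein UMIs, with 0.140% and 0.270%. The part of cell make-up in the library ratios of the other barcodes was not tested. No replicate shows how much testes of 1 group differ.

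Many of the differences past 2-fold were also seen in the other barcodes. These include barcodes just below the threshold: ranks 501 to 1000 had 0.152% and 0.144% of their UMIs from the selection genes. The part of such barcodes in the ratios of the other barcodes was not tested. Of the 141 genes 120 were also at least 2-fold higher in the other barcodes of the high-fat library, and of the 134 genes 78 at least 2-fold lower. Among all 3510 genes 5.56% and 2.48% were that much higher or lower in the other barcodes. Some genes were nearly confined to 1 library: 11 of the higher and 9 of the lower genes were under 1 CPM in 1 of the libraries. Gm6218, a processed pseudogene, had 1392 counts (129 CPM) in the members of the diet-unnamed library and 1 count in those of the high-fat library. Rag1, the recombinase gene of lymphocytes, had 1414 counts (131 CPM) and 2 counts, with 33.4 and 0.264 CPM in the other barcodes, and its exons overlap B230118H07Rik on the same strand. In the other direction Klrb1, a receptor gene of killer cells, had 1 count against 1543 (121 CPM), with 0.0531 and 13.9 CPM in the other barcodes.

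Of the 12 genes lowest in the high-fat library 4 were protein-coding, and of the 12 highest 2 were, Klrb1 and Rd3. The others were pseudogenes and antisense or other noncoding transcripts. Among them were 4930471L23Rik, with 0 counts against 1522 (at least 430-fold higher, against a floor of 3 counts over the 500 members), and Gm16142, with 1721 counts against 0 (log2 ratio of at most -9.40 against the same floor). Ubash3a, a regulator of T cell receptor signalling, was at 58.8 and 0.393 CPM, with 78.9 and 1.55 CPM in the other barcodes. The lymphoid markers summed to 57.9 and 30.7 CPM in the members, with Nkg7 at 0 in the diet-unnamed library, and their part in these differences was not tested.

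Fewer genes differed between the libraries by at least 2-fold more, or less, in the Cst13-rich spermatids than in the other barcodes: 26 (0.741%) with a higher and 51 (1.45%) with a lower log2 ratio. These counts include genes without counts in 1 library, such as 1700101I19Rik among the 51. The ratios of such genes are bounds set by the floor of 3 counts per set. Trappc2l, a subunit of the TRAPP vesicle tethering complex, had 42.0 CPM (452 counts) and 383 CPM (4864 counts) in the members, a log2 ratio of 3.19 (95% interval 3.05 to 3.33), but 74.2 and 78.6 CPM in the other barcodes (0.08). Its ratio was -0.11 in the early round set, 0.47 in the middle round set and 3.14 in the protamine-rich set. Ncoa4, the receptor that delivers ferritin to lysosomes, had 18.7 and 163 CPM (3.13), against 1.05 in the other barcodes, 0.52 in the early round set, 2.81 in the middle round set and 2.89 in the protamine-rich set. Fmn1, a formin that nucleates actin, had 17.6 and 180 CPM (3.35), against 1.44 in the other barcodes, 2.35 in the middle round set and 3.39 in the protamine-rich set, and its exons overlap genes on the other strand. The protamine-rich set shares most of its barcodes with the members.

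Bloc1s6, a subunit of a complex for lysosome-related organelles, went the other way, with 191 CPM (2061 counts) and 1.81 CPM (23 counts). Its log2 ratio was -6.73 (-7.39 to -6.14), against -1.97 in the other barcodes, -1.54 in the early round set, -6.17 in the middle round set and -6.11 in the protamine-rich set. Col16a1, a collagen gene, had 97.1 and 12.0 CPM (-3.01), against -0.36 in the other barcodes, -0.25 in the middle round set and -3.12 in the protamine-rich set. Defb14, a beta-defensin gene, had 119 and 15.6 CPM (-2.94), against -0.40 in the other barcodes, -1.87 in the middle round set and -3.26 in the protamine-rich set. Fbl, the nucleolar methyltransferase fibrillarin, had 57.8 and 10.9 CPM (-2.41), and its ratios in the same 3 sets were 0.16, -0.41 and -2.26. Lmnb1, a B-type lamin, had 50.4 and 3.38 CPM (-3.90), and its ratios there were -0.96, -3.17 and -3.36. Fxyd2 (22.0 and 73.2 CPM, 1.73) and Atp6ap1l (18.6 and 212 CPM, 3.51) differed less in the members than in the other barcodes, where the ratios were 5.61 and 7.23. In the middle round set these were 5.35 and 5.50, and in the protamine-rich set 1.78 and 3.45.

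Over all functional lists, 436 genes had at least 20 CPM in the members of either library, of which 7 (1.61%) were 2-fold higher and 6 (1.38%) 2-fold lower in the high-fat library. Of all genes with at least 20 CPM in the members of either library, 5.86% were 2-fold higher and 5.38% 2-fold lower in the high-fat library. Of 26 lists with such genes, 17 had none past 2-fold in either direction. In the acrosome (23 measured), sperm-egg fusion (12), outer dense fibre and sheath (23), manchette (24), histone-to-protamine (19), actin-like (22) and glycolysis (20) lists, which are 7 of these, 0 genes passed. Prm1 had a ratio of 0.39 and Prm2 of 0.22. Lower were Rsph1 (1550 and 569 CPM, -1.45, and -1.50 in the other barcodes), Crat, the carnitine acetyltransferase (310 and 141 CPM, -1.14), Mogat1, a monoacylglycerol acyltransferase (50.2 and 10.7 CPM, -2.23), Gpx6, a glutathione peroxidase (183 and 77.0 CPM, -1.25), and Bdh1, a ketone body enzyme (26.2 and 8.65 CPM, -1.60). Higher were Rpl13, a ribosomal protein (49.3 and 409 CPM, 3.05, and 3.33 in the other barcodes), Dnah1, an axonemal dynein (9.94 and 33.4 CPM, 1.75), Gpat3, a glycerol phosphate acyltransferase (7.52 and 21.9 CPM, 1.54), and Jund, an AP-1 factor (69.3 and 154 CPM, 1.15). Exons of Crat, Mogat1, Bdh1, Rpl13, Dnah1, Gpat3 and Jund overlap another gene.

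**Figure D5:**
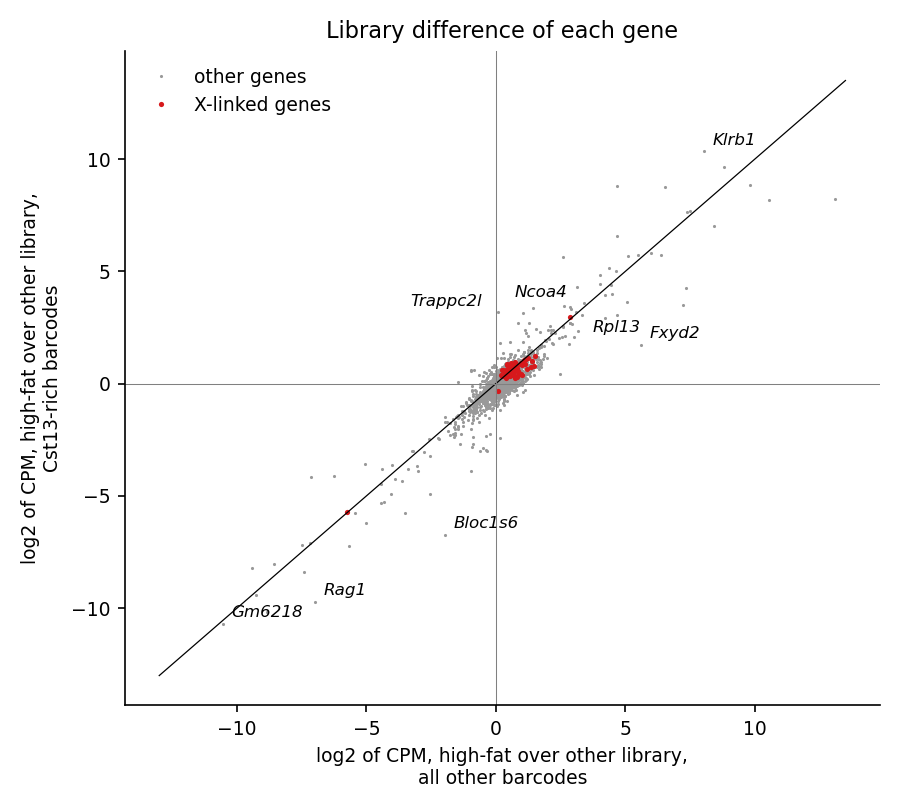
Log2 ratio of CPM, high-fat over the diet-unnamed library, for each gene with at least 50 CPM in the Cst13-rich barcodes of either library, in all other barcodes (x axis) and in the Cst13-rich barcodes (y axis), with the line of equal ratios and X-linked genes in red. Most genes lie near 0 or along the line, and Trappc2l (0.08 and 3.19) and Bloc1s6 (-1.97 and -6.73) lie off it.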

How the data were processed

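Droplet single-cell RNA sequencing libraries (DNBelab C series) were made from dissociated testes, 1 per group. The deposited values are whole-number UMI counts per gene and barcode, with no normalization, from PISA 1.0 per the file headers. Cell Ranger 2.1.1 is named per the submitters' processing notes. The aligner, genome build, annotation and barcode filter were not given in the sources used here, so reads shared by overlapping genes or close copies may have been assigned differently than assumed.

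Counts were summed over the barcodes of a set and divided by their total (CPM). Levels have exact Poisson 95% intervals, and ratios between libraries exact conditional binomial ones. Both cover counting error only, and PCR and sampling of animals add to it. With 1 library per group no p-value was computed. Genes counted as past the fold had an absolute log2 ratio of at least 1 and at least 50 CPM in either set (20 CPM for lists). The members, stage sets and lists (27 of function and 14 of markers, with 828 genes found in the files and 10 not) were chosen with earlier results of these data known. Named genes were the selection genes; the 20 highest and 10 lowest against other barcodes and the 10 highest and lowest against each stage set, with at least 200 CPM; the 12 highest and lowest between libraries and the 10 with the largest differences from the other barcodes, with at least 50 CPM; marker genes; and from each list the 3 of highest level and those of most extreme ratio. Others named, such as Adam3 and Tubd1, were chosen after their values were seen. Doublets were scored with Scrublet (scanpy 1.11.5): its own threshold called 652 barcodes and 0, so the 6% of highest scores were taken (828 and 760 barcodes, 4 and 11 of them members) and left out only as an alternative. Gene kinds and exon overlaps came from a GENCODE mouse annotation that matched 39109 of 39232 gene IDs, and promoters from RefSeq. Scripts used Python 3.11.15, numpy 2.4.6, scipy 1.17.1, pandas 2.3.3 and matplotlib 3.10.9, and were tested on simulated data. Alternatives changed the number of members, the smallest barcode total, weighting, thinning, doublets, the selection genes, shared barcodes, level filter and centring.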

Additional observations from a re-analysis of the deposited data

Results flagged for a closer look

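Barcodes with fewer than 5000 UMIs were outside the choice, and some had the same signal. In the diet-unnamed library, 180 of 4060 such barcodes (4.43%, exact 95% interval 3.82% to 5.11%) had a share of selection-gene UMIs at or above that of the last member, and in the high-fat library 209 of 5095 did (4.10%, 3.57% to 4.68%). Their medians were 2387 and 2007 UMIs, the 7 genes made up 0.345% and 0.310% of their UMIs, and protamine and transition protein genes 3.03% and 3.02%, near the 3.15% and 3.87% of the members. At such depth a few UMIs decide the share: 158 and 148 of them had UMIs of at least 3 of the 7 genes.

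Nkx6-2, a homeobox gene, lay on opposite sides of the other barcodes in the libraries. In the diet-unnamed library it was at 163 CPM in the Cst13-rich spermatids and 74.2 CPM in the other barcodes (log2 ratio 1.14), and in the high-fat library at 22.7 and 51.9 CPM (-1.19). It was 1 of 3919 genes (0.0255%) past 2-fold in opposite directions. The library ratio was -2.85 in the members, -0.51 in the other barcodes, -2.39 in the middle round set and -2.75 in the protamine-rich set. Its exons overlap Inpp5a on the other strand, and the difference between libraries was not tested.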

How the results depend on the processing

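Of 106 alternative values of counts and shares, 84 stayed within 1.5 times the reported count or within the 95% interval of the reported share, and 22 did not. The 84 include all alternatives of the counts against the early round set, which are not given above. There 1067 of 3887 genes (27.5%) were at least 2-fold higher in both libraries and 982 (25.3%) lower. Genes past 2-fold between the libraries were 2261 higher and 1977 lower with no level filter beyond 10 counts (141 and 134 with it). Genes higher than in the middle round set were 247 when stage-set members were left out (403 reported), and genes lower were 250 with 250 members, 81 with 1000 members and 61 with stage-set members left out (143 reported). Against the protamine-rich set, genes higher were 140 with 250 members, 34 with 1000, 167 without doublet calls and 8 with stage-set members left out (323 reported), and genes lower 84, 55, 108 and 44 (169 reported). The cause was not tested. The share of members in the protamine-rich set was 66.0% and 57.6% with 250 members, 89.1% and 84.3% with 1000, 87.0% and 82.0% with a smallest total of 10000 UMIs, and 65.6% and 55.2% with 2000 (79.8% and 76.0% reported). It was not computed under equal weighting, thinning or with stage-set members left out, which fix it by construction. For genes named between the libraries, 407 of 407 alternative values of those past 2-fold kept their sign and stayed past 2-fold, while 85 of 484 for all those genes lay outside the reported counting interval. For the other named genes, 1260 of 1260 kept their sign and 1217 stayed past 2-fold, while 839 moved by more than 0.1 on the log2 scale. The genes past 2-fold in both groups were named for extreme ratios, and the alternatives draw on the same 2 libraries. Their kept signs are therefore a description and no test. No paired analysis was possible because there was 1 library per group. Depth limits genes of few counts, and 1 library per group limits every comparison of diets.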

Other observations

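X-linked genes in the Cst13-rich spermatids were higher in the high-fat library as a group. Of 129 X-linked genes with at least 20 CPM in the members of either library, 125 had a log2 ratio above 0 (96.9%), with a median of 0.52, where 2888 of 5695 autosomal genes did (50.7%), with a median of 0.01. Among protein-coding genes, 108 of 109 X-linked genes and 2253 of 4540 autosomal genes were higher. Tsga8, a chromatin protein gene of spermatids, was at 647 and 1100 CPM (0.77), Cypt1 at 415 and 668 CPM (0.69), Hypm at 342 and 473 CPM (0.47), Akap4 at 299 and 376 CPM (0.33) and Tmsb15a, a thymosin gene, at 191 and 365 CPM (0.93). All X-linked genes together made up 0.977% and 1.43% of the members' UMIs and 0.400% and 0.507% of those of the other barcodes.

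The difference was not limited to these cells. The median over X-linked genes was 0.55 in the other barcodes, 0.23 in the early round set, 0.44 in the middle round set and 0.54 in the protamine-rich set. At least 2-fold differences were few, with 12 X-linked genes higher and 2 lower. The 5 Y-linked genes measured were also higher, with a median of 0.75. Under the alternatives, applied to this group of genes after seeing the data, the median over X-linked genes was between 0.50 and 0.59. Over the other barcodes of the same library, the X-linked genes had median log2 ratios of 1.73 and 1.78 in the members. Autosomal genes kept by the same filter had 0.02 and 0.02. That filter asks for a level in the members and none in the other barcodes, so these medians are a description. The middle round set also had a larger X-linked share of UMIs than the other barcodes, 0.796% and 1.06%.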
